A study of Gallus gallus with 2 samples.

Results

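Chromosomes 11, 12, 13, 14 and 15 of the chicken carried 1958 of the 21993 long non-coding RNA (lncRNA) transcripts listed for breast muscle, or 8.90%. The rule that selected them used the chromosome name alone and no measured value, though earlier results of these data were known. The 14 transcripts on unplaced scaffolds assigned to the same chromosomes were left out. The table compared 2 chicken strains: White Recessive Rock (WRR), which the labels call fast-growing, and the Chinese native Xing Hua (XH), which they call slow-growing. Both groups were females of 7 weeks with average body weight, kept on 1 diet in different cages, with a labelled body weight of 625.3 ± 12.0 g in WRR and 328.5 ± 10.6 g in XH (kind of error not named). RNA of 4 birds per strain was pooled in equal amounts into 1 library, so no spread between birds could be estimated and every difference is one between 2 pooled libraries, with no p-value.

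The karyotype of birds combines a few large macrochromosomes with many small microchromosomes. Microchromosomes are known for dense genes, short introns, GC-rich and CpG-rich sequence and frequent recombination. Long non-coding RNAs are transcripts without a recognised protein-coding frame, many of them of low abundance and restricted to few tissues, and in skeletal muscle some are known to act on the growth and differentiation of muscle cells. The breast muscle of the chicken consists largely of fast glycolytic fibres. The table pairs no transcript with a gene, so transcripts are named by their identifier and by their position in the build galGal4, counted from 1, and the labelled tissue could not be checked against muscle markers.

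The library totals in the table's header were 9.44 M reads in WRR and 7.71 M in XH. The transcripts of chromosomes 11 to 15 took 103070 reads in WRR and 119342 reads in XH, which made up 5.58% (WRR) and 6.34% (XH) of the reads of all listed transcripts. Per M reads of the library total, these were 10915 in WRR (exact Poisson 95% interval 10848 to 10982) and 15470 in XH (15382 to 15558). The shares of listed reads depend on a few abundant transcripts, since the 10 most read of the whole list held 29.7% of its reads in WRR and 11.3% in XH. For the members, the ratio of WRR to XH was 0.706 (exact 95% interval 0.700 to 0.711). For all listed transcripts it was 0.801 (0.799 to 0.802), and the same 10 transcripts per library weigh on this value. These and all later intervals cover counting error only, and PCR copies of a molecule could not be told from separate molecules.

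The 5 chromosomes split into a sparse and a dense group. Chromosome 15, the shortest at 12.7 Mb, carried 423 transcripts or 33.4 per Mb, and chromosome 14 (15.2 Mb) carried 453 or 29.9 per Mb. Chromosomes 11 (19.4 Mb, 382 transcripts), 12 (19.9 Mb, 385) and 13 (17.8 Mb, 315) carried 19.7, 19.3 and 17.7 per Mb. Among the 28 numbered autosomes, chromosome 15 ranked 4th and chromosome 14 ranked 7th in density, while chromosomes 11, 12 and 13 ranked 21st, 22nd and 25th. Together the 5 chromosomes had 23.1 transcripts per Mb, against 20.4 on chromosomes 1 to 8, 28.3 on chromosomes 9 and 10, and 26.3 on chromosomes 17 to 20. With overlapping intervals merged, chromosome 15 had 27.5 loci per Mb and chromosome 14 had 26.7, against 18.7, 17.1 and 15.1 on chromosomes 11, 12 and 13.

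**Figure D1:**
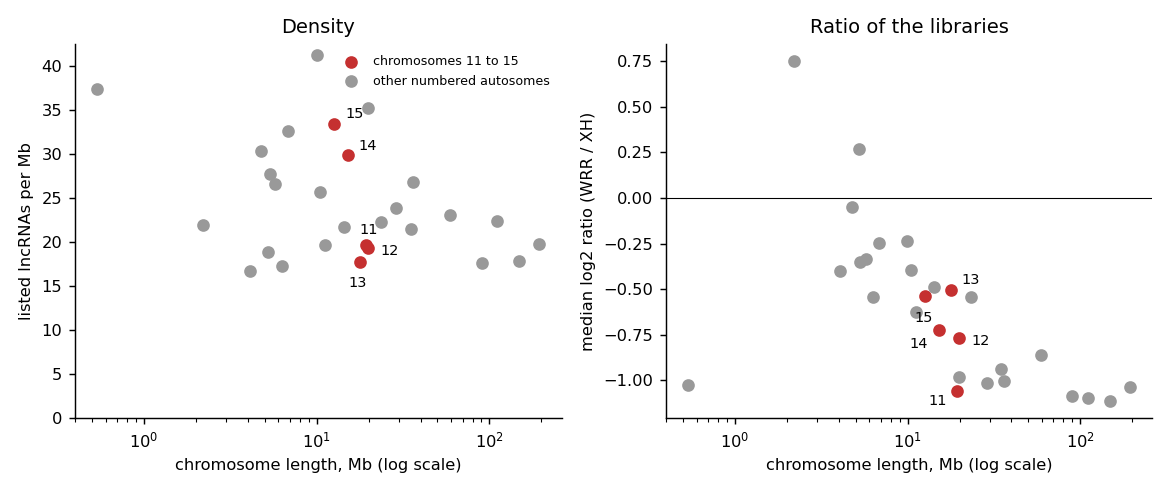
Listed lncRNAs per Mb (left) and median log2 ratio of WRR over XH (right) of each numbered autosome, against chromosome length in Mb on a log axis, with chromosomes 11 to 15 in red and numbered. Chromosomes 14 and 15 lie above chromosomes 11 to 13 in density, and chromosome 11 has the lowest ratio of the 5, -1.06.

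In structure the transcripts of these chromosomes were close to the whole list. Their median length was 842 bases (quartiles 572 and 1287), against 844 for all, and the range was 202 to 17883 bases. The genomic interval was longer than the transcript for 93 of them (4.75%), here called gapped, against 4.84% of all. An interval that overlapped another listed one was more frequent: 368 (18.8%) did so, against 14.01% of all. The share was 9.16% on chromosome 11, 17.9% on 12, 24.1% on 13, 18.1% on 14 and 25.1% on 15. Of the 106 overlapping entries of chromosome 15, 38 lay in a group joined by a long gapped interval. On chromosome 12, 18 of 69 lay in such a group, joined by long gapped intervals. Elsewhere the share was 13.4% on chromosomes 1 to 8 and 11.6% on 9 and 10. It was 20.97% on chromosomes 17 to 20 and 17.6% on 16 and 21 to 28, so a raised share was not confined to the members. The library preparation marked the strand, but the table gives none and whether counting used it is not stated, so overlapping and antisense partners cannot be told apart.

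Most of these lncRNAs were present at a low level in both libraries. The median RPKM (reads divided by transcript length in kb and by the library total in M reads) was 2.60 in WRR, with quartiles of 1.19 and 4.96, and 3.98 in XH, with quartiles of 2.46 and 7.08. The medians of all listed transcripts were 2.65 in WRR and 4.48 in XH. Reads covered a median of 79.4% of the transcript in WRR and 87.5% in XH. By chromosome, the median RPKM in WRR ran from 2.04 on chromosome 11 to 3.19 on chromosome 15, and in XH from 3.81 on chromosome 14 to 4.19 on chromosome 15. Chromosome 11 thus had the lowest median RPKM of the 5 in WRR but not in XH. Its median coverage was also the lowest of the 5 in WRR, 72.3%, against 88.5% in XH. Transcripts at 10 RPKM or more numbered 198 (10.1%) in WRR and 324 (16.5%) in XH, where the shares over all listed transcripts were 11.2% and 20.7%.

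The comparison of the strains asked which lncRNAs of these chromosomes differed between the fast-growing and the slow-growing pool. The log2 ratio of WRR over XH was computed as log2((WRR RPKM + 0.1) / (XH RPKM + 0.1)), which understates the change of low transcripts, for the 1907 members whose higher library reached 0.5 RPKM or more. At least 2-fold higher in WRR were 207 of the 1907 (10.9%), against 9.45% of all 21625 transcripts past this filter. At least 2-fold higher in XH were 792 (41.5%), against 46.9% of all. The remaining 908 lay within 2-fold. The median log2 ratio was -0.73 (quartiles -1.58 and 0.18), against -0.92 for all transcripts, a distance of 0.19. By summed reads the members instead lay below the whole list, with a WRR to XH ratio of 0.706 against 0.801. The sum of the whole list rests in part on few transcripts, since its 10 most read held 29.7% of its reads in WRR and 11.3% in XH. The order without them was not computed. The ratio of the reads had an exact 95% interval without 1 for 178 of the 207 (9.33% of the 1907, against 7.64% of all) and for 745 of the 792 (39.1%, against 44.9%).

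The direction of the median depended on the scaling of the libraries. With the median of all transcripts, -0.92, set to 0, 508 members (26.6%) were past 2-fold on the WRR side and 331 (17.4%) on the XH side, where the shares over all transcripts were 22.3% and 20.3%. WRR then made up 60.5% of the members past 2-fold in place of 20.7%. With TMM scaling the numbers were 485 and 363, a share of 57.2% for WRR, and scaled to listed reads they were 290 and 615, or 32.0%. Each of these scalings changes a library by 1 constant and so shifts all log2 ratios by nearly the same amount. The distance between the members' median and that of all transcripts could therefore hardly change. It was 0.18 with TMM, 0.18 with size factors and 0.18 scaled to listed reads.

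By chromosome, the median log2 ratio was -1.06 on chromosome 11, -0.77 on 12, -0.50 on 13, -0.72 on 14 and -0.54 on 15. Relative to all transcripts these were -0.14, 0.15, 0.41, 0.19 and 0.38. On chromosome 11, 29 of 374 transcripts (7.75%) were past 2-fold on the WRR side and 197 (52.7%) on the XH side. On chromosome 13 these were 35 of 301 (11.6%) and 100 (33.2%). Chromosome 14 had the largest share on the WRR side, 59 of 444 (13.3%), with 181 (40.8%) on the XH side. Chromosome 12 had 42 (11.2%) and 166 (44.3%) of 375, and chromosome 15 had 42 (10.2%) and 148 (35.8%) of 413. Chromosomes 9 and 10 together had a median of -0.79 and chromosomes 17 to 20 of -0.40. The pooled median of the 5 chromosomes lay between these values, and that of chromosome 11 lay below both. Taken singly, chromosome 9 had -0.54 and chromosome 10 had -0.98. Ranked from the highest median among the 28 numbered autosomes, chromosome 11 was 25th, with chromosomes 2, 3 and 4 lower. Chromosomes 12 to 15 were 17th, 11th, 16th and 12th. The differences among chromosomes were not tested, since transcripts of 1 library are not replicates.

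The ratio was tied to the serial number of a transcript in the table. Its 3 runs of numbers, set from the order of chromosomes alone, are called series A (1 to 3658), B (3659 to 11941) and C (11942 to 22903). The sources used here do not say how the runs arose. Of the members, 258 (13.2%) were in A, 763 (39.0%) in B and 937 (47.9%) in C. In series A the median log2 ratio of the members was -0.46, with 7 of 257 (2.72%) past 2-fold on the WRR side and 55 (21.4%) on the XH side, against 5.15% and 26.6% of all series A transcripts. In series B it was 0.25, with 191 of 737 (25.9%) and 89 (12.1%), against 23.6% and 15.9%. In series C it was -1.49, with 9 of 913 (0.986%) and 648 (71.0%), against 0.764% and 76.1%. Within each series the members' median lay above that of all transcripts of the series, by 0.10 in A, 0.19 in B and 0.14 in C.

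Series membership also differed among the chromosomes. On chromosome 11, 57.3% of the transcripts were in series C, against 44.9%, 45.4%, 47.9% and 43.7% on chromosomes 12 to 15 and 48.3% in the whole table. Within series, chromosome 11 lay at -0.68 in A, 0.099 in B and -1.63 in C, against -0.56, 0.057 and -1.64 for all transcripts. In series B and C taken singly, chromosome 11 was thus within 0.1 of the value for all transcripts. Chromosome 13 lay above all transcripts in each series, at -0.29, 0.26 and -1.21. Chromosome 14 had the highest series B median of the 5, 0.41, with 55 of 179 (30.7%) past 2-fold on the WRR side. The mean of the 3 series medians, which gives each series equal weight, was -0.74 on chromosome 11, -0.64 on 12, -0.41 on 13, -0.55 on 14 and -0.53 on 15, against -0.71 for all.

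**Figure D2:**
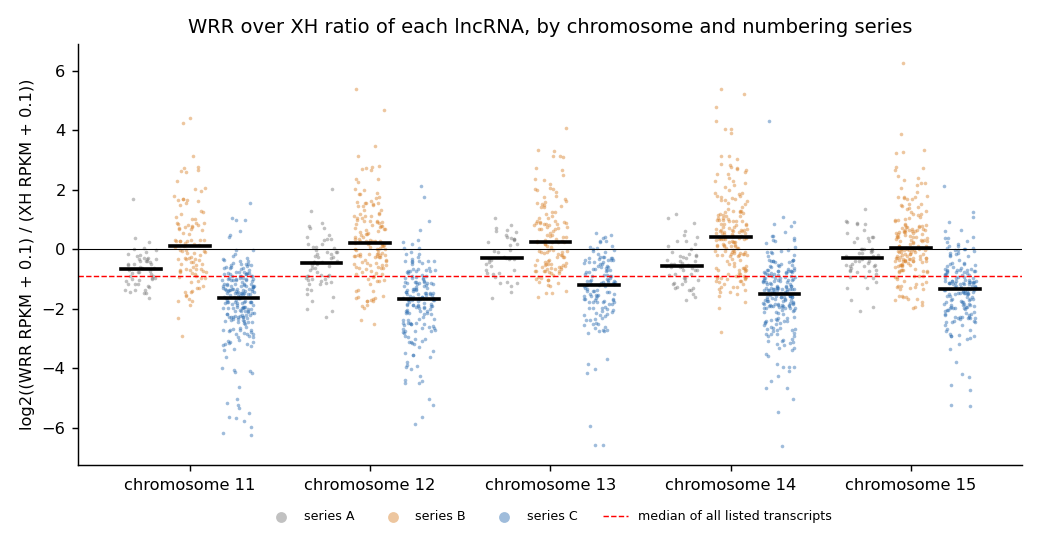
Log2 ratio of WRR over XH of each of the 1907 transcripts past the filter (points), by chromosome and numbering series, with the median of each group as a black bar and the median of all listed transcripts as a dashed line. On all 5 chromosomes series B has the highest and series C the lowest median, from 0.048 to 0.41 in B and from -1.69 to -1.21 in C.

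Along the chromosomes the transcripts were unevenly spread. The 82 full windows of 1 Mb held 0 to 134 transcripts with a median of 20, and 21 of them held fewer than 10. Between neighbouring loci the median distance was 2.59 kb (quartiles 0.378 and 36.5 kb), and 661 of 1719 distances (38.5%) were under 1 kb. The transcripts thus sat in groups separated by long empty stretches. The longest stretch without a listed transcript was 2005 kb on chromosome 13, from 4049249 to 6054596. The longest on chromosome 11 was 1257 kb, from 10926598 to 12183331, and those on chromosomes 14, 12 and 15 were 964, 775 and 714 kb.

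The densest window of the 5 chromosomes, between 1 and 2 Mb of chromosome 15, held 134 transcripts. Of the 131 past the filter, 12 were past 2-fold on the WRR side and 42 on the XH side, with a median log2 ratio of -0.48. The shares over all transcripts past the filter were 9.45% and 46.9%. The densest window of chromosome 14 was at 0 to 1 Mb with 68 transcripts, and that of chromosome 12 at 1 to 2 Mb with 57. Chromosomes 11 and 13 had at most 42, at 6 to 7 Mb and at 7 to 8 Mb. In the chromosome 15 window, 109 of the transcripts lay in the last 400 kb. Neighbouring bins of 100 kb, looked at after the window was found, differed there in pooled median and in series. The 27 transcripts with midpoints between 1600001 and 1700000 had a median log2 ratio of 0.50, and 22 of them were in series B. The 38 between 1700001 and 1800000 had a median of -0.67, and 30 were in series C. Within each series the order was the reverse. The medians of the first and the second bin were -0.038 and 0.19 in A and 0.59 and 1.10 in B. In C they were -1.16 (1 transcript) and -0.84.

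Window medians of the ratio spanned more than 2 log2 units. Among the 64 windows with at least 10 transcripts past the filter, the medians ran from -1.65 to 0.60, and 8 were above 0. The highest were 0.60 at 18 to 19 Mb of chromosome 11, where 13 of 17 transcripts were in series B, and 0.47 at 2 to 3 Mb of chromosome 14, where 17 of 28 were. The lowest were -1.65 at 12 to 13 Mb of chromosome 11, where 37 of 39 were in series C, and -1.49 at 7 to 8 Mb of the same chromosome, where 11 of 19 were. The window at 7 to 8 Mb lay below its chromosome in each series. Its medians were -1.47 in A (1 transcript), -0.60 in B and -2.70 in C, against -0.68, 0.099 and -1.63. Chromosome 11 thus held the highest and the lowest of the 64 medians.

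With each chromosome cut into 3 equal parts and the 5 pooled, the medians of series B spanned a wider range than those of series C. Over the 5 chromosomes, the series B median was 0.46 in the first part, -0.16 in the middle and 0.28 in the last, and the series C median was -1.47, -1.51 and -1.51. On chromosome 11 the series B medians were 0.65, -0.66 and 0.32, and on chromosome 14 they were 0.55, -0.20 and 0.69. Chromosome 15 also had its lowest series B median in the middle, with 0.37, -0.15 and 0.27. On chromosomes 12 and 13 the middle did not dip: the medians were 0.28, 0.21 and -0.028 on 12, and 0.69, 0.25 and -0.098 on 13. Chromosome 12 was the exception in range, since its series C medians, -1.56, -1.87 and -1.93, spanned more than those of its series B.

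**Figure D3:**
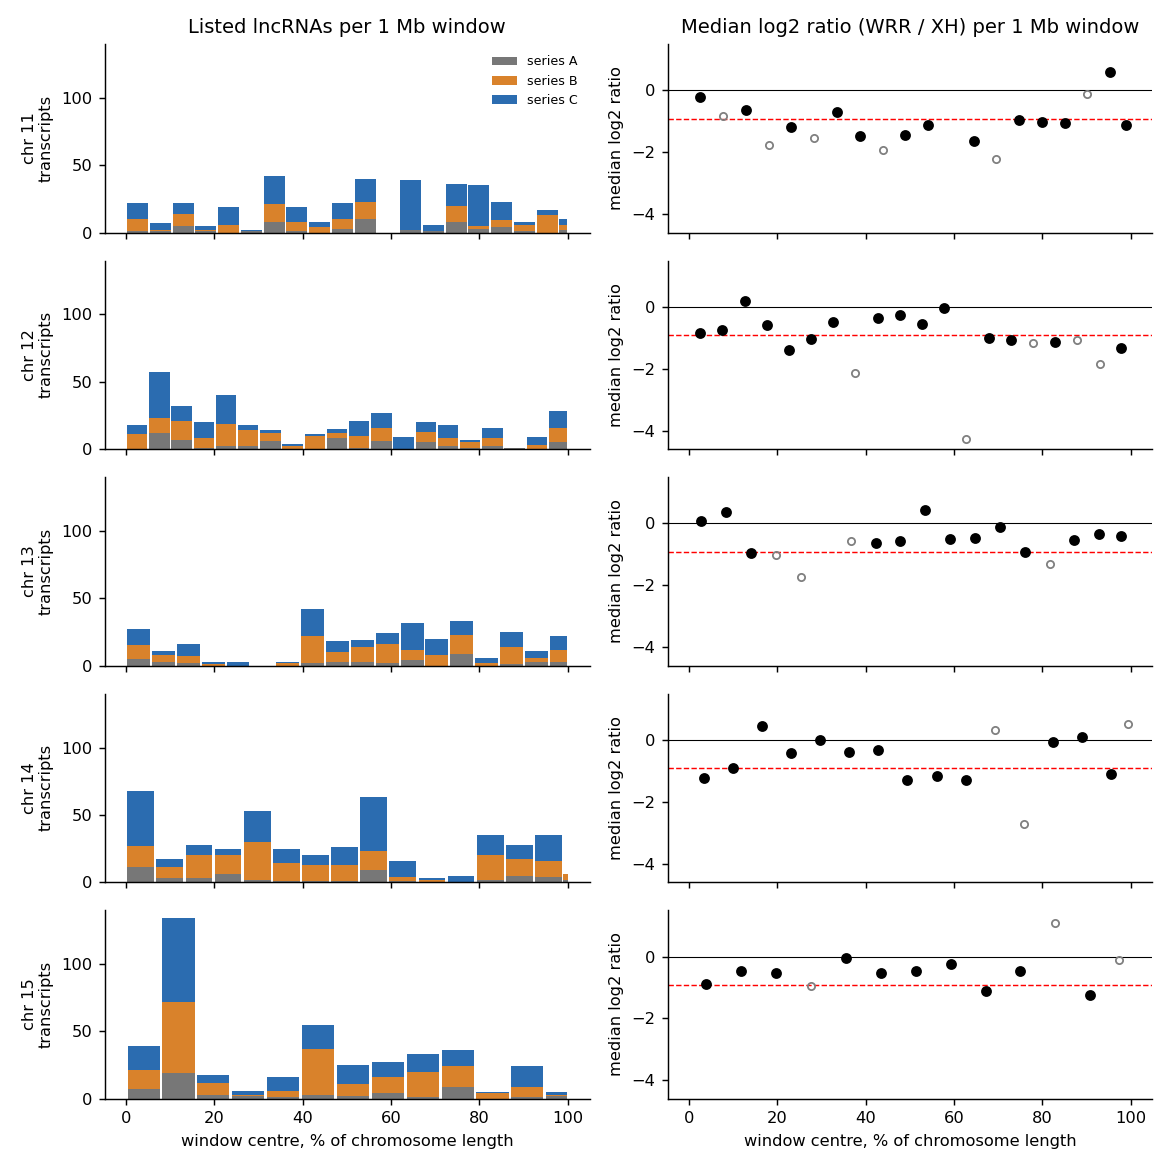
Listed lncRNAs per 1 Mb window, stacked by numbering series (left), and median log2 ratio of WRR over XH per window (right), against the window centre as a percent of chromosome length, for chromosomes 11 to 15 from top to bottom. Filled points are windows with at least 10 transcripts past the filter, open points have fewer, and the dashed line is the median of all listed transcripts. The 134 transcripts of 1 window of chromosome 15 exceed every other window.

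On the scale of the library totals, members higher in XH stood next to each other in longer runs than members higher in WRR. Counting neighbours in order of position, the 207 members past 2-fold on the WRR side formed 170 runs, of which 3 had 4 members and none more. The 792 on the XH side formed 377 runs, of which 60 had 4 members or more and the longest 17. The lists differ in size, and how often such runs arise by order alone was not tested. With the median of all transcripts set to 0, the WRR list would be the larger, 508 members against 331. Runs at that scaling and over the whole list are not given here. The runs described next were picked by their length after the values had been seen.

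The longest run lay near the start of chromosome 14, from 114244 to 221071. Its 17 transcripts, all of series C, had a median of 0.537 RPKM in WRR (range 0 to 2.29) and 4.96 RPKM in XH (2.33 to 9.90), with median coverage of 38.6% and 91.5%. Their median log2 ratio was -2.67. The next run, 13 transcripts over 740 kb of chromosome 11 from 7168939 to 7909237, had a median log2 ratio of -2.27 and held all 3 series. Of the 3 runs of 4 on the WRR side, all of series B, that on chromosome 14 from 3898658 to 3944710 had the highest median log2 ratio, 2.34, with 78 reads in WRR and 12 reads in XH over its 4 transcripts.

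A stretch of 419 kb on chromosome 12, from 12420762 to 12840000, was singled out after its values had been seen. It held 9 transcripts of 287 to 561 bases, all of series C and all lower in WRR, and no other listed transcript lay within the window of 12 to 13 Mb. They had 27 reads in WRR and 188 reads in XH in all, and their median log2 ratio was -4.27. Unigene14742_All and Unigene14743_All had no reads in WRR and 20 and 14 reads in XH. Unigene14722_All (12800022 to 12800308), Unigene14723_All (12813628 to 12813914) and Unigene14724_All (12816257 to 12816556) had 1 read each in WRR and 23, 22 and 20 reads in XH. They were 28.2-fold, 26.9-fold and 24.5-fold higher in XH, with lower interval bounds of 4.57, 4.35 and 3.92. The most read of the 9, Unigene14725_All, reached 3.68 RPKM in WRR against 13.5 RPKM in XH, where it was 3.67-fold higher (1.75 to 8.42). XH coverage was high for the whole stretch, with a median of 93.6%, against 31.4% in WRR.

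The most abundant transcripts were short. The 35 members with at least 50 RPKM in either library had a median of 410 bases, against 842 for all members, and held 16.7% of the members' reads in WRR and 11.4% in XH. Of these 35, 12 reached that level in both libraries, 6 in WRR alone and 17 in XH alone. Each library taken singly, 18 of the 1958 members reached it in WRR and 29 in XH. Of all 21993 listed transcripts, 278 did so in WRR and 431 in XH, so XH had more in the whole list too. Since the 35 were picked by their level in either library, the direction of their ratios follows in part from the choice and is not counted. The 10 members with most reads held 11.9% of the members' reads in WRR and 10.3% in XH, where the 10 most read of all listed transcripts held 29.7% and 11.3% of all listed reads. Since 10 of 1958 and 10 of 21993 are unlike parts of their lists, these shares do not compare how concentrated the reads were.

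The transcript of the highest mean level was Unigene15120_All, 215 bases on chromosome 14 from 13566566 to 13566780. It counted 998 WRR reads (492 RPKM) against 383 XH reads (231 RPKM), a ratio of 2.13 (exact 95% interval 1.89 to 2.40). Reads covered 99.5% of it in both libraries. It was 1 of the 9 members of series C that were at least 2-fold higher in WRR. The second of this chromosome, Unigene5852_All, has 506 bases in an interval of 10.8 kb from 1134547 to 1145370. It showed 157 RPKM in WRR, against 166 RPKM in XH, and the interval of its ratio, 0.849 to 1.05, included 1.

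Chromosome 12 held the next most abundant ones. Unigene3052_All, 279 bases from 9119639 to 9119917, measured 282 RPKM in WRR against 173 RPKM in XH, a ratio of 1.63 (1.44 to 1.85). Its neighbour Unigene1249_All, 390 bases from 9119023 to 9119412, reached 173 RPKM in WRR against 42.2 RPKM in XH, a log2 ratio of 2.03. The 2 entries lie close together and both were higher in WRR; the neighbour was added after its values had been seen. Unigene5584_All, 410 bases from 3500116 to 3500525, counted 1190 WRR reads (307 RPKM) against 144 XH reads (45.5 RPKM). Its ratio was 6.75 (5.67 to 8.08), the largest on the WRR side among the 10 transcripts named by mean level.

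On chromosome 11, abundant transcripts of opposite direction stood close together. Unigene14431_All, 271 bases from 6846493 to 6846763, counted 20 WRR reads (7.82 RPKM) against 205 XH reads (98.1 RPKM), 12.5-fold higher in XH (7.91 to 20.97), with 98.2% and 98.9% of its length covered. At 6841941 to 6842172, Unigene5458_All of series B stood at 51.6 RPKM in WRR against 12.3 RPKM in XH, a ratio of 4.196. Between 6829125 and 6832070 stood 3 transcripts of series C with 18.4, 31.8 and 15.5 RPKM in WRR and 63.1, 63.5 and 53.3 RPKM in XH. These 4 neighbours of Unigene14431_All were added after their values had been seen. The other transcript named by mean level on the chromosome, Unigene5486_All from 10376071 to 10376344, showed 72.3 RPKM in WRR, against 73.3 RPKM in XH, and the interval of its ratio ran 0.792 to 1.23.

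The 4 transcripts named by mean level on chromosomes 13 and 15 differed by at most 2.53-fold between the libraries. Unigene1417_All (chromosome 13, 1852582 to 1853278) measured 177 RPKM in WRR against 101 RPKM in XH, a ratio of 1.74 (1.57 to 1.93), and its coverage was 96.6% in WRR and 69.7% in XH. Unigene5823_All (chromosome 13, 16463395 to 16465686) reached 51.4 RPKM in WRR against 57.1 RPKM in XH, a ratio of 0.900 (0.826 to 0.981). Unigene2182_All (chromosome 15, 7521148 to 7521475) stood at 140 RPKM in WRR against 55.3 RPKM in XH, a ratio of 2.53 (2.08 to 3.08). Unigene6217_All (chromosome 15, 10699928 to 10700703) showed 110 RPKM in WRR, against 83.5 RPKM in XH, a ratio of 1.32 (1.18 to 1.48). Once the median of all transcripts is set to 0, Unigene14431_All had a log2 ratio of -2.72. The 10 transcripts named by mean level were picked by their level in the same 2 libraries, so their directions are not counted.

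**Figure D4:**
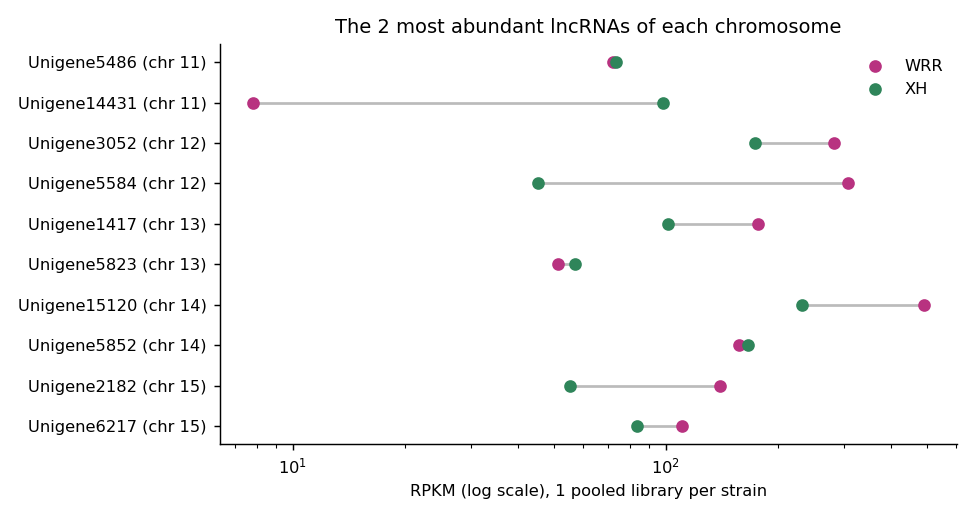
RPKM in WRR and XH, on a log axis, of the 2 transcripts with the highest mean RPKM of each chromosome, 1 pooled library per strain. The widest distances are those of Unigene14431_All, at 7.82 RPKM (WRR) against 98.1 RPKM (XH), and Unigene5584_All, at 307 RPKM (WRR) against 45.5 RPKM (XH).

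The 2 highest log2 ratios of each chromosome, among members with at least 20 reads in all and reads in both libraries, all belonged to series B. The highest was Unigene6024_All, 309 bases near the end of chromosome 14 from 15120812 to 15121433, with 85 WRR reads (29.1 RPKM) against 4 XH reads (1.68 RPKM), a ratio of 17.4 (6.54 to 65.2). It lies within the interval of Unigene6023_All (15119178 to 15121433), which measured 177 RPKM in WRR against 101 RPKM in XH, a log2 ratio of 0.80. The next entries on this chromosome, Unigene858_All and Unigene3109_All of series A, reached 8.62 and 6.74 RPKM in WRR against 19.4 and 17.7 RPKM in XH. Neighbouring entries at this chromosome end, added after their values had been seen, thus differed in direction.

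The other high ratios rested on few XH reads. Unigene5675_All (chromosome 12, 16178270 to 16178859) had 19 reads in WRR and 1 read in XH, a ratio of 15.5 (2.47 to 645). Unigene5750_All (chromosome 13, 9477147 to 9477664) had 29 and 2 reads in WRR and XH, a ratio of 11.8 (2.997 to 102). Unigene6226_All (chromosome 15, 11060182 to 11060799) had 28 and 2 reads, a ratio of 11.4 (2.88 to 99.1). Unigene5832_All (chromosome 13, 17703741 to 17704365), Unigene5441_All (chromosome 11, 2857413 to 2877362) and Unigene5938_All (chromosome 14, 6502124 to 6504487) had ratios of 10.6, 10.2 and 9.53 with 2 or 3 reads in XH. Unigene5565_All (chromosome 12, 2435642 to 2436322) had more reads, 63 in WRR and 7 in XH, and a ratio of 7.35 (3.37 to 19.03). The last 2, Unigene5510_All (chromosome 11, 18166830 to 18167506) and Unigene6172_All (chromosome 15, 7704058 to 7705255), had ratios of 8.17 and 7.35.

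The 2 lowest log2 ratios of each chromosome by the same rule all belonged to series C. Unigene14933_All (chromosome 14, 153989 to 154488), within the run of 17 described above, had 1 read in WRR over 18.0% of its length and 30 reads in XH over 99.8%, 36.7-fold higher in XH (6.10 to 1498). Unigene15104_All (chromosome 14, 11950001 to 11950612) had 1 and 27 reads and was 33.0-fold higher in XH (5.45 to 1353). On chromosome 15, Unigene15161_All (504984 to 505386) and Unigene15252_All (4807850 to 4808165) had 1 read each in WRR and 22 and 19 reads in XH, 26.9-fold and 23.3-fold higher in XH. On chromosome 11, Unigene14417_All (6795221 to 6795778) had 2 and 34 reads and was 20.8-fold higher in XH (5.33 to 179), and Unigene14377_All (1036887 to 1037172) had 3 and 46 reads and was 18.8-fold higher in XH (6.03 to 94.3). Chromosome 13 had the mildest ones, Unigene14801_All (3250248 to 3250704) and Unigene14834_All (8514401 to 8514639), 7.34-fold and 7.04-fold higher in XH. The pair of chromosome 12 was given with its stretch above.

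Members without reads in 1 library had at most 24 reads in the other. A dash, taken as 0 reads, stood for WRR at 55 members (2.81%, against 2.47% of all) and for XH at 36 (1.84%, against 1.35%). Where WRR had a dash, XH had a median of 11 reads and at most 24, and where XH had a dash, WRR had a median of 4 and at most 22. Of the 55, 50 were in series C, and of the 36, 30 were in series B. The whole list had a similar split, with 504 of 544 WRR dashes in series C and 254 of 296 XH dashes in series B. Unigene14806_All (chromosome 13, 6062225 to 6064776) had no WRR read listed and 24 XH reads (9.40 RPKM). Against an assumed floor of 3 reads per library it was 9.79-fold higher in XH, with an exact lower bound of 7.37. Unigene14805_All (chromosome 13, 4048931 to 4049248), with 23 XH reads, was 9.38-fold higher in XH against that floor (exact lower bound 7.04). Unigene14805_All ends where the empty stretch of 2005 kb begins. On the WRR side, Unigene5651_All (chromosome 12, 11483440 to 11484018) had 22 WRR reads (4.02 RPKM) and no XH read listed. It was 5.99-fold higher in WRR against the same floor, with an exact lower bound of 4.48. Likewise Unigene5758_All (chromosome 13, 9703487 to 9704836) had 20 WRR reads and was 5.45-fold higher in WRR against the floor, with an exact lower bound of 4.03.

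Where a series B and a series C transcript overlapped, the series B entry had the higher ratio in nearly all pairs. Among members past the filter, 119 pairs of overlapping neighbours joined different series. The direction was looked at in the 92 of them that joined series B and C, and in 91 of the 92 (98.9%) the series B entry had the higher log2 ratio. Neighbours of series B and C that did not overlap had much the same order, with series B higher in 91.1% of 90 pairs under 1 kb apart, 91.2% of 114 at 1 to below 10 kb, 90.3% of 155 at 10 to below 100 kb and 87.8% of 82 from 100 kb on. The series B entries had a median log2 ratio of 0.96 and the series C entries of -1.70, and the median difference within a pair was 2.84 (quartiles 1.54 and 4.44). Several entries stand in more than 1 pair, so the 92 pairs are not separate. The shared part of the intervals was a median of 434.5 bases, or 68.3% of the shorter interval, with a range of 0.319% to 100%. The series B entry was gapped in 14 pairs and the series C entry in 8, so a shared part can hold bases outside the transcripts. In 29 pairs the series B entry was at least 2-fold higher in WRR and the series C entry at least 2-fold higher in XH. Among the 35 pairs with at least 20 reads in each entry, 34 had the higher ratio in series B. Over all numbered autosomes, series B was higher in 693 of 721 such pairs (96.1%), so the pattern was not confined to these chromosomes.

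Single pairs show the contrast at 1 place. On chromosome 15, Unigene6087_All (series B, 1751231 to 1751580) stood at 13.3 RPKM in WRR against 2.59 RPKM in XH, and Unigene15235_All (series C, 1750440 to 1751314), which shares 84 bases with it, showed 3.87 RPKM in WRR, against 9.48 RPKM in XH. Their log2 ratios were 2.32 and -1.27. On chromosome 13 the most read pair was Unigene5741_All (series B, 7853423 to 7857478) and Unigene14828_All (series C, 7854725 to 7858124). Their intervals, both gapped, shared 2754 bases, and their log2 ratios were -0.75 and -1.04. This pair differed by 0.30 on the log2 scale. Both pairs were chosen after their values had been seen, that of chromosome 15 for its contrast, 3.59 on the log2 scale, the widest among the 6 such pairs with at least 50 reads in each entry.

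**Figure D5:**
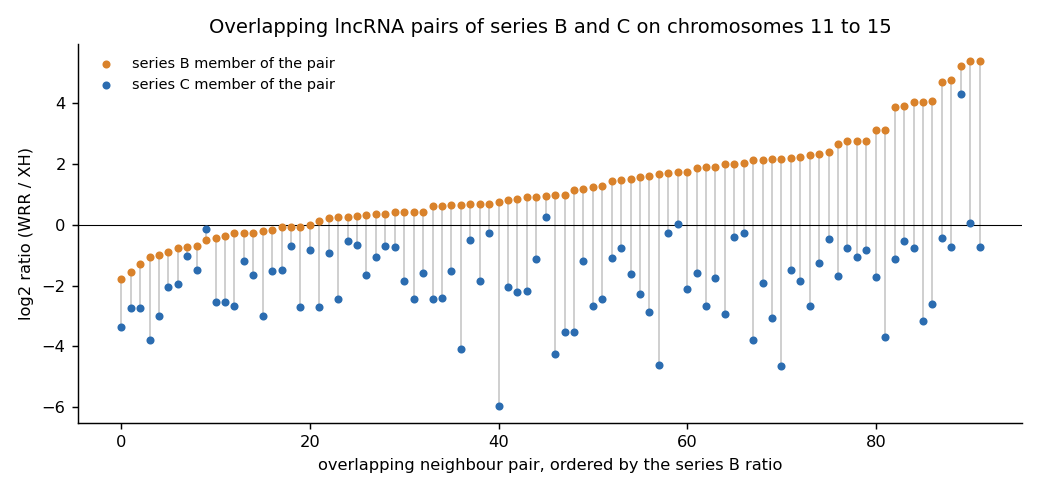
Log2 ratio of WRR over XH of the series B (orange) and the series C (blue) transcript in each of the 92 overlapping neighbour pairs of chromosomes 11 to 15, ordered by the series B ratio, with a line joining the pair. The series B point is above the series C point in 91 pairs.

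Among neighbours of the same series that did not overlap, the median difference was smaller at shorter distance. The share on the same side of the median of all transcripts, -0.92, was not ordered by distance. For pairs under 1 kb apart the median absolute difference in log2 ratio was 0.62 (448 pairs), for 1 to below 10 kb it was 0.82 (254), for 10 to below 100 kb 1.03 (215) and from 100 kb on 1.27 (67). The shares with both ratios on the same side of that median were 75.2%, 78.0%, 73.0% and 77.6%. The 8 overlapping pairs of 1 series differed by 0.70. Transcripts 20 places apart in the same series and chromosome differed by 1.02 (1607 pairs). Neighbours of series B and C differed by 1.94 under 1 kb apart (90 pairs) and by 2.07 from 100 kb on (82 pairs). Close neighbours of series B and C thus differed more than distant neighbours of the same series. These are descriptions across transcripts that share their 2 libraries.

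Coverage was lower where intervals overlapped. Among members with at least 50 reads in both libraries, the 28 overlapping ones had a median coverage of 84.2% in WRR and 84.9% in XH, and the 302 others 95.4% in WRR and 96.0% in XH. The overlapping ones were longer, with a median of 2246 bases against 1697, and had fewer reads, with medians of 103 in WRR and 127.5 in XH, against 125.5 in WRR and 136.5 in XH for the others. The part of length and depth in the difference in coverage was not tested. Over all listed transcripts the medians were 84.2% and 87.0% for 383 overlapping ones, and 95.1% and 96.9% for 3741 others. The deposited reads are called unique in the header, and whether reads in shared sequence were left out is not given there. Of 319 overlapping members past the filter, 54 (16.9%) were past 2-fold on the WRR side and 115 (36.1%) on the XH side, against 14.4% and 43.9% of all overlapping transcripts.

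The 3 longest members were all of series A and all lower in WRR. Unigene3045_All, 17883 bases on chromosome 15 from 1924771 to 1942653, counted 898 WRR reads (5.32 RPKM) against 969 XH reads (7.02 RPKM), a ratio of 0.757 (0.691 to 0.830). Its coverage was 94.0% in WRR and 96.7% in XH. Unigene632_All, 10090 bases on chromosome 11 from 14962388 to 14972477, measured 4.08 RPKM in WRR against 8.05 RPKM in XH, a ratio of 0.507 (0.445 to 0.576). Unigene1873_All, 9514 bases on chromosome 11 from 2843122 to 2852635, reached 2.84 RPKM in WRR against 6.54 RPKM in XH, or 2.30-fold higher in the XH library (1.98 to 2.69).

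Gapped members spread their length over longer stretches. Of the 93, 88 passed the filter, and their log2 ratios had a median of -0.031, with 19 (21.6%) past 2-fold on the WRR side and 15 (17.05%) on the XH side, against 26.2% and 23.1% of all gapped transcripts. Of the 1819 contiguous members, 188 (10.3%) were past 2-fold on the WRR side and 777 (42.7%) on the XH side, against 8.61% and 48.1% of all contiguous transcripts. The longest intervals were those of Unigene3070_All (2847 bases over 410 kb of chromosome 12, 2334692 to 2744673) and Unigene3308_All (2124 bases over 408 kb, 2322993 to 2730645), which overlap. They stood at 10.7 and 7.38 RPKM in WRR against 8.56 and 5.74 RPKM in XH, with log2 ratios of 0.33 and 0.36. Inside the interval of Unigene3070_All lay 16 other members with log2 ratios from -1.37 to 2.79, of which 4 were at least 2-fold higher in WRR, all of series B, and 5 in XH, all of series C. The third, Unigene3122_All (1980 bases over 161 kb of chromosome 15, 1694099 to 1854986), showed 10.5 RPKM in WRR, against 14.8 RPKM in XH, a log2 ratio of -0.49. Its interval enclosed 37 members, the largest group on these chromosomes, of which 3 were past 2-fold on the WRR side and 12 on the XH side. For both enclosed groups, the shares over all transcripts past the filter were 9.45% on the WRR side and 46.9% on the XH side.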

How the data were processed

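The deposited table gives, per the file headers, read counts of uniquely mapped reads per transcript, RPKM and coverage in percent for each library. The submitters' processing notes name galGal4 as build, and Cufflinks 2.0.2 beside TopHat2 2.0.8 as tools without saying what each did. The sources used here do not say how lncRNAs were assembled and called. The RPKM formula on the listed reads, length and header total gave all 1903 listed WRR values and 1922 listed XH values of the members within 0.001%. A dash was taken as 0 reads, since the smallest listed count was 1. Starts were read as counted from 0. The members and comparisons were chosen with earlier results of these data known. With 1 library per strain no test was run; the deposited counts entered no count model. Ratios used a pseudocount of 0.1 RPKM and a filter of 0.5 RPKM, computed over the whole table, and exact intervals are Clopper-Pearson. Named were, per chromosome, the 2 highest mean RPKM and the 2 highest and 2 lowest log2 ratios (at least 20 reads, reads in both libraries); over all members, the 2 most read dashes per library, the 3 longest transcripts and the 3 longest gapped intervals; exceptions are marked. A transcript was assigned to a window by its midpoint. Neighbouring genes were not run, since no annotation of the build was used here. Python 3.11.15, scipy 1.17.1 and edgeR 4.0.16 (TMM factors only) were used. The ratio and interval code was tested on simulated data.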

Additional observations from a re-analysis of the deposited data

How the results depend on the processing

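No paired analysis was possible because there is a single pool for each of the strains, which also means that no replicate could be left out. The scaling decided the direction of the medians. With TMM the members' median log2 ratio was 0.12, and the medians of chromosomes 11 to 15 were -0.21, 0.071, 0.35, 0.10 and 0.31. With median-of-ratios size factors they were 0.16, and -0.17, 0.11, 0.39, 0.14 and 0.34. Centred on the median of all transcripts they were 0.19, and -0.14, 0.15, 0.41, 0.19 and 0.38. The members past 2-fold on the WRR and the XH side then numbered 485 and 363, 497 and 347, and 508 and 331. These 3 settings put the median of all transcripts at -0.062, -0.025 and 0. Scaled to listed reads, the median was -0.42, and by chromosome -0.74, -0.46, -0.19, -0.43 and -0.23. Within series A the median was -0.46 and by chromosome -0.68, -0.45, -0.29, -0.56 and -0.31, with 7 members higher in WRR and 55 in XH. Within series B it was 0.25, and by chromosome 0.099, 0.22, 0.26, 0.41 and 0.048, with 89 higher in XH. Within series C it was -1.49, and -1.63, -1.69, -1.21, -1.50 and -1.34, with 9 higher in WRR. Series A, B and C hold 257, 737 and 913 of the 1907 transcripts, and beyond that the cause of their lower counts was not tested. With a pseudocount of 1 RPKM, 134 members (7.03%) were higher in WRR, against 6.13% of all transcripts. The members' median was then -0.59 and that of chromosome 11 was -0.86. At a fold of 3, 126 members were higher in WRR and 471 in XH. The shares of all transcripts past that fold were not computed. Merging overlapping intervals lowered the density to 17.1, 15.1, 26.7 and 27.5 per Mb on chromosomes 12 to 15. Further settings were a pseudocount of 0.01 RPKM, the other filters, the added scaffolds, contiguous transcripts alone and transcripts without overlap. They left the members past 2-fold at 153 to 226 on the WRR side and 677 to 808 on the XH side. These were 9.38% to 11.5% and 39.8% to 42.7% of the members, against 8.29% to 9.89% and 45.5% to 48.1% of all transcripts. The members' median stayed between -0.76 and -0.71. Most members had few reads, a median of 21 in WRR and 24 in XH, so the size of single ratios is known only within wide limits.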

Other observations

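The log2 ratios of chromosomes 11 to 15 were spread most widely at the lowest level, but the spread was not narrowest at the highest. Members with a mean under 2 RPKM had quartiles of the log2 ratio of -2.14 and 0.87 (358 transcripts), and those from 5 to below 20 RPKM of -1.23 and -0.057 (479). Those of 20 RPKM and more had quartiles of -1.17 and 0.27 (104). In series B the low class had a median of 1.42 and the class from 5 to below 20 RPKM of -0.53, while in series C these were -2.01 and -0.88. The lowest level thus showed the widest distance between the series. The whole list had the same order, with quartiles of -2.32 and 0.67 under 2 RPKM, -1.41 and -0.17 from 5 to below 20 RPKM, and -1.20 and 0.098 from 20 RPKM on. Its low class had medians of 1.18 in series B and -2.06 in series C. The part of counting error in the spread at low level was not tested. By length, series B members of 2000 bases and more had a median of -0.61 (64 transcripts), against 0.31 from 500 to below 2000 bases (532) and 0.19 under 500 bases (141). In series C the long members were highest, with -1.31, -1.48 and -1.62. In the whole list the long class likewise had the lowest median in series B, -0.66, and the highest in series C, -1.56.

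A group of abundant neighbours was higher in XH. On chromosome 12, from 19728049 to 19731095, Unigene36_All, Unigene205_All and Unigene3359_All of series A showed 20.9, 13.8 and 22.6 RPKM in WRR, against 53.4, 35.9 and 69.3 RPKM in XH, and were 2.56-fold, 2.59-fold and 3.07-fold higher in XH. Their log2 ratios, -1.35, -1.37 and -1.61, lay below the -0.92 of all transcripts. A further group lay on chromosome 14 from 11812607 to 11974078, where 5 transcripts of series C of low level had 1 to 9 reads in WRR and 16 to 27 reads in XH. It follows an empty stretch of 964 kb. These groups were chosen after their values had been seen.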
